A study of Mus musculus with 16 samples.

Results

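A group of 10 glutathione S-transferase genes was followed by acetylation of histone H3 at lysine 27 (H3K27ac), which marks promoters and enhancers in use, measured by chromatin immunoprecipitation and sequencing in mouse liver. The members were Gsta2, Gsta3 and Gsta4 of the alpha class, Gstm1, Gstm2, Gstm3 and Gstm4 of the mu class, Gstp1 of the pi class, and Gstt1 and Gstt2 of the theta class. A region of the count table belonged to a member when its midpoint lay inside the gene, or lay in no gene and within 50 kb of it as the nearest protein-coding gene. This rule, which uses positions and no measured value, gave 50 of 52645 regions, of which 16 were alpha, 14 mu, 4 pi and 16 theta. All 50 passed the filter on low counts.

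The libraries came from 4 groups of 3, lettered A to C within a group by rising library number. KO PTU/LID were NCoR1 knockout mice on a low-iodine diet with 0.15% propylthiouracil, a drug that blocks thyroid hormone synthesis, and KO chow were NCoR1 knockout mice on chow. WT PTU/LID and WT chow were the wild-type mice on the same diets. All were labelled C57BL/6J, the diet began at 6 weeks of age and lasted 3 weeks, and every liver was collected on day 21. NCoR1 is a corepressor that brings histone deacetylase activity to nuclear receptors, the thyroid hormone receptors among them. The labels used here name neither the deleted part of Ncor1 nor a driver of the deletion, no thyroid hormone values were used, and the labels do not tie each library to its own animal. The p-values therefore reflect variation among libraries, which may be technical.

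Glutathione S-transferases join glutathione to reactive, electrophilic compounds and make them soluble enough to be exported from the cell. The cytosolic enzymes are sorted into classes by sequence, work as dimers, and are abundant in hepatocytes. Many of their genes are induced by the stress-activated factor NRF2 at antioxidant response elements, and some by the xenobiotic receptors CAR and PXR.

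Among the alpha enzymes, Gsta3 conjugates the activated form of aflatoxin in mouse liver, Gsta4 acts on the lipid peroxidation product 4-hydroxynonenal, and Gsta2 is a liver enzyme with peroxidase activity. Promoter windows from RefSeq (GRCm38.p6, the assembly of mm10) were found for 8 of the 10 members, all but Gsta4 and Gstt2. Those of Gsta3, Gsta2, Gstm1 and Gstp1 are shown, because regions over or near the starts of Gsta3, Gsta2 and Gstm1, and one further inside Gstp1, passed the tests described further on. Each runs from 250 bases before the transcript start to 20 bases after it, 5′ to 3′ on the gene's own strand, and capitals mark motif matches. Gsta3 lies on the plus strand of chromosome 1 (window chr1:21240335-21240604). The other windows are on minus strands, at chr9:78347126-78347395 for Gsta2, chr3:108017799-108018068 for the second listed start of Gstm1 and chr19:4037893-4038162 for Gstp1.
Gsta3: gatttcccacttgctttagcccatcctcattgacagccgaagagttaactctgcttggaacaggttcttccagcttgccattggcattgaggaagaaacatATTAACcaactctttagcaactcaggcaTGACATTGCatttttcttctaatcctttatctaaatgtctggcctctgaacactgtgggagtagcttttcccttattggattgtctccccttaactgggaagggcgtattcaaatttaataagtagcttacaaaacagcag
Gsta2: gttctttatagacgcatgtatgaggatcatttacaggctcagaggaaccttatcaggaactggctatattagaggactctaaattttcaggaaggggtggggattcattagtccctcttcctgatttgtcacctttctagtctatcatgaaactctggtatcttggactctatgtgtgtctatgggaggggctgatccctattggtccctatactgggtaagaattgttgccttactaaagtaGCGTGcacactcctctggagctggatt
Gstm1: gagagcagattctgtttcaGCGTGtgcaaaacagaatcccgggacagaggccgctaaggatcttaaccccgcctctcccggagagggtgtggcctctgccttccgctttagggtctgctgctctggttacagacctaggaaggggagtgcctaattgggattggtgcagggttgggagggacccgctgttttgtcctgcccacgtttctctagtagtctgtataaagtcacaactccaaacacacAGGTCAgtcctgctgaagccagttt
Gstp1: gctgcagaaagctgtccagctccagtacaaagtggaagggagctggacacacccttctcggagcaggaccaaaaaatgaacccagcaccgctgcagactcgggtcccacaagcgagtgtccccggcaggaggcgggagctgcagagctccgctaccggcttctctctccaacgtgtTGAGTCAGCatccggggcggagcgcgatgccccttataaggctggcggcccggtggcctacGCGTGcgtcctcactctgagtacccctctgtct

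Both strands were searched for the antioxidant response element core TGACNNNGC, the nuclear receptor hexamer AGGTCA, 2 direct repeats of that hexamer with any 4 bases or any 1 base between the copies, the HNF1 motif GTTAAT and the xenobiotic response element core GCGTG. The hexamer also lies inside both repeats. The stricter NRF2-type element TGANTCAGC was added after the windows had been seen. Positions count from the transcript start, which is 0. The Gsta3 window held TGACATTGC, a match to the antioxidant core, at -121 to -113 and the HNF1 motif on the opposite strand at -149 to -144. In the Gstp1 window TGAGTCAGC lay at -74 to -66 and the xenobiotic core at -13 to -9. The Gsta2 window held the xenobiotic core at -7 to -3, and the Gstm1 window held it at -231 to -227 with a nuclear receptor hexamer at -5 to 0. The windows of Gstm2, Gstm3, Gstm4 and Gstt1, not shown here, held no match to any of these motifs. Over all 32851 windows of the full length, 12.4% held the antioxidant core, 16.3% the hexamer, 7.1% the HNF1 motif, 32.4% the xenobiotic core and 1.19% the NRF2-type element. The direct repeats were in 0.0152% (spacing of 4) and 0.0396% (spacing of 1) of windows and in no member window. These matches describe the letters and say nothing of binding.

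The members lie on 5 chromosomes (mm10). Gsta3 has 9 regions around chr1:21240565-21265575. The mu genes stand in a row on chromosome 3, with Gstm3 (4 regions) at 107963696 to 107969174, Gstm2 (2 regions) at 107981702 to 107986420, Gstm1 (4 regions) at 108012250 to 108017973 and Gstm4 (4 regions) at 108030571 to 108045179. On chromosome 9, Gsta4 (1 region) spans 78191966 to 78209349 and Gsta2 (6 regions) 78331018 to 78347192. Gstt1 (12 regions) and Gstt2 (4 regions) lie on chromosome 10 at 75783813 to 75798584 and 75831842 to 75837419, and Gstp1 (4 regions) on chromosome 19 at 4035411 to 4037912. Of the 50 regions, 30 had their midpoint inside a member and 20 outside one, and 5 covered the transcript start of a member with a promoter window. Distances to a start or gene are from a region's midpoint. Whether a region is exonic or intronic was not analysed here. Regions are numbered here along each chromosome. Over full windows the promoters of Gsta1 and Gsta2 were 74.6% identical and those of Gstp1 and Gstp2 76.4%, while every other pair within a class with both windows, all such mu and theta pairs included, was 45.8% to 52.0% identical. How reads that fit several copies were placed is not given in the sources used here. Which copy carries a change is therefore uncertain, and was not tested for any member. Only promoter windows were compared, so these identities do not cover regions outside them.

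Total counts ran from 2965505 to 7416187 per library, with 3719180 to 7416187 in KO PTU/LID, 5628758 to 6707960 in KO chow, 3095704 to 4729424 in WT PTU/LID and 2965505 to 5831372 in WT chow. Mitochondrial chromosome (chrM) regions took 0.72% to 2.27%, 3% to 17.25%, 0.95% to 3.26% and 0.82% to 6.12% of the counts in the same order of groups. At or above 2% were 7 libraries, namely A of KO PTU/LID, all of KO chow, A of WT PTU/LID, and A and B of WT chow. Both PTU/LID libraries A were also the shallowest of their groups. Hepatocyte markers (11 of 12 with a region; Tf has none) summed to 4323 to 4651 CPM in KO PTU/LID, 3562 to 3904 in KO chow, 3099 to 4586 in WT PTU/LID and 3184 to 4103 in WT chow. CPM are counts scaled to each library's total after TMM normalisation. Endothelial markers (9 of 10; Kdr has none) summed to 581 to 623, 625 to 638, 672 to 742 and 769.7 to 841 CPM in that order, with no overlap between groups. Kupffer cell and macrophage markers (4 of 10; Clec4f, Vsig4, Adgre1, Marco, Cd5l and Lyz2 have none) summed to 31.2 to 43.2, 31.8 to 36.4, 33.2 to 35.1 and 45.3 to 62.8 CPM. Stellate cell markers (4 of 8; Lrat, Reln, Pdgfrb and Col1a1 have none) summed to 40.4 to 44.5, 42.0 to 52.8, 51.1 to 63.6 and 61.0 to 71.4 CPM. Cholangiocyte markers (3 of 7; Krt7, Krt19, Epcam and Cftr have none) gave 298 to 326, 263 to 296, 275 to 299 and 234 to 251 CPM, and lymphocyte markers (2 with a region) 65.2 to 66.9, 94.3 to 128, 47.2 to 60.7 and 87.7 to 93.9 CPM. The part that these differences play in the results was not tested. In whole liver, fewer cells of a type and less of the mark per cell cannot be told apart.

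Summed over the regions of each gene and divided by their length, H3K27ac in WT chow livers was 24.1 ± 2.26 CPM per kb at Gstt2, 23.0 ± 3.96 at Gsta3, 22.8 ± 2.86 at Gstm1 and 22.1 ± 3.11 at Gstt1 (SD, n = 3). It was 19.0 ± 1.92 at Gstm4, 18.8 ± 1.45 at Gsta2, 16.6 ± 1.06 at Gstp1 and 15.2 ± 3.55 at Gsta4, and lowest at Gstm2 (13.3 ± 0.98) and Gstm3 (13.2 ± 1.19). Each step down this order was smaller than the larger SD of its pair, save those from Gstt1 to Gstm4 and from Gsta2 to Gstp1. In KO PTU/LID livers Gstt2 again had the highest level per length (42.1 ± 7.31 CPM per kb) and Gstm2 the lowest (16.96 ± 4.3).

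By class, theta held the largest share of the members' summed H3K27ac in every group, at 48.1% in KO PTU/LID, 51.2% in KO chow, 39.5% in WT PTU/LID and 43.6% in WT chow. The alpha share was 27.4%, 26.5%, 34.6% and 29.3% in the same order, the mu share 18.5%, 17.4%, 18.6% and 20.3%, and the pi share 5.93%, 4.93%, 7.28% and 6.77%. These shares are of summed counts and grow with the length of the regions.

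The alpha sum was 364 ± 88.7 CPM in KO PTU/LID, 316 ± 41.6 in KO chow, 447 ± 93.4 in WT PTU/LID and 283 ± 35.1 in WT chow (SD, n = 3 each, here and for the other classes). For the mu class it was 241 ± 16.3, 207 ± 8.38, 234 ± 22.7 and 194 ± 19.8 CPM in that order. The single pi gene had 76.7 ± 5.44, 58.7 ± 5.5, 94.0 ± 17.7 and 64.8 ± 4.15 CPM. The mu and pi classes had all 3 PTU/LID libraries above all 3 chow libraries in both genotypes, mu in WT by very little (lowest 211.05 in PTU/LID, highest 210.95 CPM in chow), and the alpha class had this in WT. Theta summed to 633 ± 91.3 CPM in KO PTU/LID, 609.8 ± 26.7 in KO chow, 509.8 ± 99.6 in WT PTU/LID and 420.2 ± 51.7 in WT chow.

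On the log2 scale, PTU/LID over chow in WT was 0.66 for alpha, 0.54 for pi, 0.28 for theta and 0.27 for mu, whereas in KO it was 0.20, 0.39, 0.06 and 0.23 in that order of classes. Within libraries of higher chrM share the KO ratio was -0.27 for alpha and -0.21 for theta and the WT ratio of pi 0.18, and with library totals alone the KO ratio of mu was 0.35. KO over WT was 0.54 for theta on chow and 0.31 on PTU/LID. For alpha it was 0.16 on chow and -0.30 on PTU/LID, for pi -0.14 and -0.29, and for mu 0.09 and 0.05. Scaled by library totals alone, the chow ratio was -0.11 for mu, -0.33 for pi and 0.34 for theta. On PTU/LID within libraries of higher chrM share it was -0.18 for mu and 0.084 for pi. Library A was lowest of KO PTU/LID, and library A lowest of WT PTU/LID, in both the alpha and the theta sum. These sums are descriptions with no test.

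**Figure D1:**
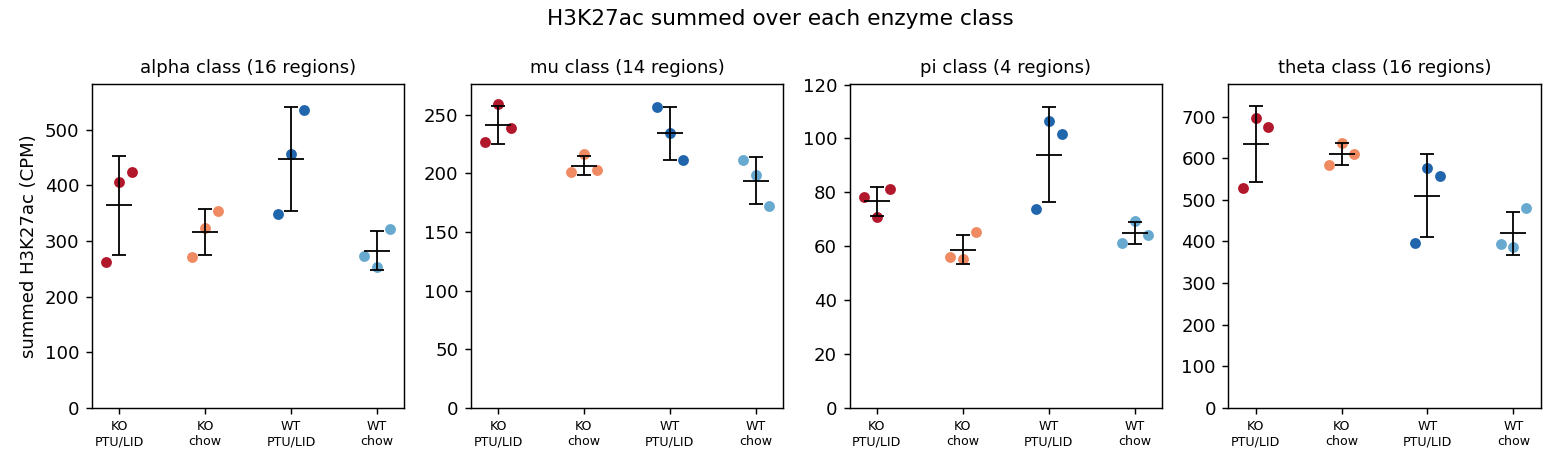
Summed H3K27ac in CPM (y axis) for the alpha, mu, pi and theta regions in KO PTU/LID, KO chow, WT PTU/LID and WT chow livers; points are libraries, bars the mean and SD of 3. All KO theta values on chow (583 to 636 CPM) lie above all WT theta values on chow (388 to 480 CPM).

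To see what the PTU/LID diet does in WT livers, WT PTU/LID was compared with WT chow. Gsta2, Gstp1 and Gstt2 rose, 1 gene each of the alpha, pi and theta classes. That is 3 of 10 members higher, beside 4.11% higher and 3.26% lower of all 11456 genes tested (7.37% in either direction), by edgeR's quasi-likelihood test with Benjamini-Hochberg adjusted p below 0.05. Lower members numbered 0 by edgeR, 0 at an unadjusted p under 0.05 and 0 with DESeq2. The members' median log2 fold change was 0.53, against 0.02 over all genes.

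Gsta2 had 96.8, 109.6 and 104 CPM in WT PTU/LID livers (libraries A, B and C, the order used for every group), against 77.6, 66.5 and 71.8 CPM in WT chow livers. Every PTU/LID library lay above every chow library. The log2 fold change was 0.53 ± 0.14 (SE, adjusted p = 0.0229 by edgeR's quasi-likelihood test). With regions inside genes only, which leaves region 1 alone, it had 1.21 and did not pass (adjusted p = 0.102). Region 1 averaged 3.08 CPM over all libraries, of 94.9 CPM for the gene. Its counts were 13 to 29 reads in WT PTU/LID and 9 to 10 in WT chow. Of the 6 regions of Gsta2, 2 rose, both upstream of the start. Gsta2 region 2, at -303 from the start (chromosome 9, 78347301 to 78347596), had 7.17, 5.6 and 8.42 CPM in WT PTU/LID against 2.85, 2.21 and 2.98 in WT chow. The PTU/LID values stood apart from the chow values, on counts of 24 to 41 and 8 to 18 reads, and the log2 fold change was 1.37 ± 0.36 (adjusted p = 0.0213 by edgeR; DESeq2 gave no adjusted p). Gsta2 region 4, at -1741, rose by 0.94 ± 0.22 (adjusted p = 0.0104). Region 6, which held the largest share of the gene's signal with a mean of 49.7 CPM over all libraries, was not among those that rose.

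Gsta3, with the highest alpha sum, had 244, 336 and 417 CPM in WT PTU/LID, against 189, 178 and 244 CPM in WT chow. Library A of PTU/LID was level with chow library C and the others lay above all of chow, and at 0.71 ± 0.22 the gene did not pass with edgeR (adjusted p = 0.0765). It passed with DESeq2 (0.00937), with library totals alone (0.0393), with the compared groups alone (0.0355) and with a chrM-set term (0.00469). Its region over the transcript start, region 2 (chromosome 1, 21240524 to 21243993), passed with edgeR. That region had 151, 214 and 245 CPM in WT PTU/LID and 99.8, 93.1 and 144 CPM in WT chow. All PTU/LID libraries were above the chow libraries, library A by little, with a log2 fold change of 0.86 ± 0.23 (adjusted p = 0.0417). Gsta4, known by 1 region inside the gene near its edge toward lower coordinates, had 0.69 ± 0.26 (adjusted p = 0.106).

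Of the mu genes, which in mouse liver are led by the enzyme of Gstm1, none passed as a whole (edgeR's quasi-likelihood test). Gstm1 had 117, 123 and 114 CPM in WT PTU/LID, against 105, 93.1 and 81.5 CPM in WT chow, a log2 fold change of 0.35 ± 0.12 (adjusted p = 0.0769). The PTU/LID and chow values did not overlap. Gstm1 region 3, over the second listed start (chromosome 3, 108016460 to 108017870), rose, with 38.8, 45.4 and 51.7 CPM against 30.4, 29.8 and 23.6 CPM and a log2 fold change of 0.71 ± 0.19 (adjusted p = 0.0213). Gstm4 region 1, between Gstm1 and Gstm4 and beyond the end of Gstm4, also rose, by 1.27 ± 0.32 (adjusted p = 0.0177). It lies 5349 bases from Gstm4 and 7249 bases from Gstm1. As whole genes Gstm3 had 0.54 ± 0.19 (adjusted p = 0.0834), Gstm4 0.17 ± 0.14 and Gstm2 -0.26 ± 0.23.

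Gstp1, the pi enzyme of glutathione conjugation, also binds the stress kinase JNK. It had 73.8, 107 and 102 CPM in WT PTU/LID and 61.1, 69.3 and 64.0 CPM in WT chow. All PTU/LID libraries were higher, library A by the smallest margin, with a log2 fold change of 0.54 ± 0.14 (adjusted p = 0.0187). Its region 3, at the end of the gene (chromosome 19, 4035393 to 4036484), rose, with 24.5, 37.3 and 30.4 CPM against 19.3, 17.9 and 14.9 CPM and a log2 fold change of 0.84 ± 0.21 (adjusted p = 0.015). Region 3 did not pass without WT PTU/LID B or C, or WT chow B or C (0.0503 to 0.129 by edgeR). Region 4, over the start and the strongest of the gene, averaged 27.1 CPM over all libraries and did not pass.

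Gstt2, a theta enzyme that acts on organic hydroperoxides and sulfate esters, had 147, 247 and 263 CPM in WT PTU/LID and 132, 139 and 158 CPM in WT chow. Library A fell within the chow range and the other PTU/LID libraries lay well above it. The log2 fold change was 0.62 ± 0.18 (adjusted p = 0.0415), and region 4, which lies 641 bases outside the gene, rose by 0.82 ± 0.22 (adjusted p = 0.0262). Fitted on the compared groups alone neither passed (0.0591 for the gene and 0.0538 for region 4), nor did the gene with regions inside genes only (0.0676). Gstt1, whose enzyme conjugates small halogenated compounds, had 248, 328 and 295 CPM in WT PTU/LID and 261, 249 and 322 CPM in WT chow, a log2 fold change of 0.07 ± 0.13. The groups overlapped throughout.

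In the same comparison 3 of 11 hepatocyte markers (median 0.25) and 1 of 3 cholangiocyte markers (median 0.36) rose. Of the other lists 1 of 9 endothelial (median -0.40), 1 of 4 Kupffer cell (median -1.03) and 1 of 2 lymphocyte markers (median -0.65) fell, and 0 of 4 stellate markers passed in edgeR (1 lower at an unadjusted p under 0.05). Their part in these results was not tested.

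In all, 7 of 50 member regions rose in WT, beside 1.82% higher and 1.9% lower of all 52592 regions tested (3.71% in either direction), with a median log2 fold change of 0.36 against -0.03 over all regions. Regions that fell numbered 0 by edgeR, 1 at an unadjusted p under 0.05 and 0 with DESeq2. The calls rested on few libraries. Without library B or C of WT PTU/LID, or C of WT chow, no member gene passed (adjusted p from 0.0589 for Gstp1 to 0.191 for Gstt2). Without WT chow A only Gsta2 remained (Gstp1 0.0767, Gstt2 0.133) and without WT chow B only Gstp1 (Gsta2 0.107, Gstt2 0.137), while without WT PTU/LID A the count was 5. Regions numbered 1 without WT PTU/LID B or WT chow B, 2 without WT PTU/LID C or WT chow C, 4 without WT chow A and 12 without WT PTU/LID A. Within libraries of higher chrM share, where WT PTU/LID is library A alone, Gsta2 had 0.43 (adjusted p = 0.195), Gstp1 0.18 (0.735) and Gstt2 0.12 (0.78). Within those of lower share, where WT chow is library C alone, they had 0.57 (0.0159), 0.70 (0.00591) and 0.69 (0.000926). A lone library is assumed there to vary like the others.

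**Figure D2:**
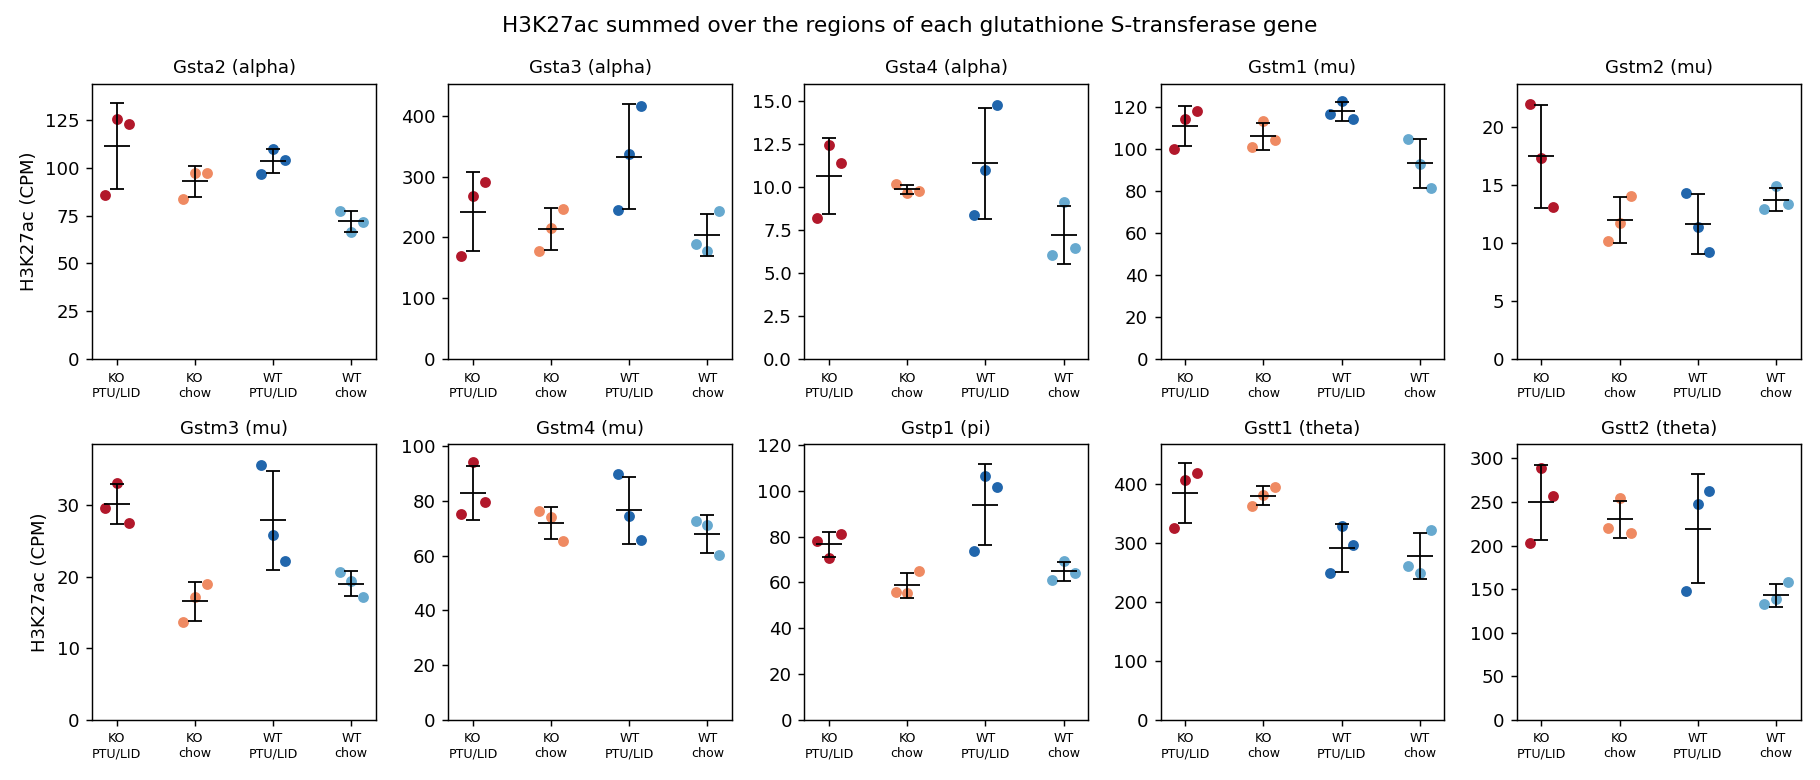
H3K27ac in CPM (y axis) summed over the regions of each member in KO PTU/LID, KO chow, WT PTU/LID and WT chow livers; points are libraries, bars the mean and SD of 3. Gstm3 has 27.5 to 33.1 CPM in KO PTU/LID against 13.6 to 18.9 CPM in KO chow, and Gstt2 215 to 255 CPM in KO chow against 132 to 158 CPM in WT chow.

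The same diet comparison in KO livers, KO PTU/LID against KO chow, gave a single gene that passed. Gstm3, a mu-class enzyme, had 29.7, 33.1 and 27.5 CPM in KO PTU/LID, against 13.6, 17.1 and 18.9 CPM in KO chow. The groups were far from overlapping, with a log2 fold change of 0.86 ± 0.18 (adjusted p = 0.00393 by edgeR's quasi-likelihood test). Gstm3 passed under all 16 alternatives tried for it, each library left out in turn among them, with an adjusted p of 0.00045 to 0.0404. Its regions 1 and 2, inside the gene near the end away from the start, rose by 1.45 ± 0.35 (adjusted p = 0.00708) and 0.89 ± 0.28 (0.0493). Region 1 (chromosome 3, 107964228 to 107964443) had 5.63, 6.35 and 3.79 CPM in KO PTU/LID against 1.81, 2.05 and 1.83 CPM in KO chow. It did not pass without KO PTU/LID B (adjusted p = 0.0686), and region 2 did not without KO PTU/LID B or C, or KO chow A or B (0.138 to 0.222), with DESeq2 (0.0657) or with a chrM-set term (0.0561). Within the libraries of higher chrM share, where KO PTU/LID is library A alone, regions 1 and 2 had 1.56 and 0.56.

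That is 1 of 10 member genes higher, beside 3.67% higher and 3.43% lower of all genes (7.1% in either direction), and the median was 0.20 against -0.03. Lower member genes numbered 0 by edgeR, 0 at an unadjusted p under 0.05 and 0 with DESeq2. Gstp1 had 78.2, 70.6 and 81.2 CPM in KO PTU/LID, against 55.9, 55.3 and 65.1 CPM in KO chow. The PTU/LID libraries all lay above the chow libraries, but at 0.38 ± 0.13 the gene did not pass with edgeR (adjusted p = 0.0945). With DESeq2 and with library totals alone it did. Its region 3, the one that rose in WT, rose in KO too, with 22.5, 28.6 and 23.6 CPM in KO PTU/LID against 10.7, 14.5 and 14.7 CPM in KO chow (log2 fold change 0.91 ± 0.20, adjusted p = 0.00339). Within the libraries of higher chrM share, where KO PTU/LID is library A alone, this region had 0.75. Among the rest, Gstm2 had 0.52 ± 0.21, Gsta2 0.27 ± 0.13, Gstm4 0.21 ± 0.13, Gsta3 0.19 ± 0.22, Gsta4 0.14 ± 0.23, Gstt2 0.12 ± 0.17, Gstm1 0.07 ± 0.12 and Gstt1 0.02 ± 0.12, none of them past the threshold. Gsta2 passed without KO PTU/LID A (0.42, adjusted p = 0.0273).

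Regions assigned to Gsta3 moved in opposite directions in KO. Regions 7, 8 and 9 form a group 38630 to 40751 bases beyond the far end of the gene, and the next coding gene on their other side, Khdc1a, is 43351 to 45472 bases away. Region 9 (chromosome 1, 21306152 to 21306500) had 3.32, 6.76 and 9.62 CPM in KO PTU/LID and 1.09, 0.744 and 1.22 CPM in KO chow. Region 8, the strongest of them (chromosome 1, 21304411 to 21305974) and singled out after its values were seen, had 30.7, 64.2 and 66.0 CPM and 7.62, 13.2 and 12.1 CPM in the same order. Region 7 (chromosome 1, 21304106 to 21304305) had 4.86, 4.42 and 3.64 CPM in KO PTU/LID and 0.544, 1.3 and 1.22 CPM in KO chow. At each of them the lowest PTU/LID library was above the highest chow library. The log2 fold changes were 2.70 ± 0.41 for region 9 (adjusted p = 1.77e-05), 2.30 ± 0.42 for region 8 (0.00745) and 2.02 ± 0.40 for region 7 (0.000828). Regions 7 and 9 rest on few reads, with 3 to 8 and 4 to 8 in the KO chow libraries. Regions 7 and 8 passed under all 14 alternatives tried for them, and region 9 failed in 1 of 14, within the libraries of higher chrM share (log2 fold change 1.67, adjusted p = 0.12).

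Region 6 of Gsta3, inside the gene 13047 bases after the start (chromosome 1, 21253221 to 21254043), fell. It had 12.0, 7.45 and 5.25 CPM in KO PTU/LID, against 22.0, 19.7 and 18.9 CPM in KO chow. All PTU/LID libraries were below the chow libraries, library A by the least, with a log2 fold change of -1.35 ± 0.25 (adjusted p = 0.000307). Within the libraries of higher chrM share, where KO PTU/LID is library A alone, it was -0.75 (adjusted p = 0.225). Region 2 over the start, which rose in WT, had 79.5, 144 and 159 CPM in KO PTU/LID and 107, 134 and 160 CPM in KO chow (log2 fold change -0.07 ± 0.23), with the groups overlapping. With a chrM-set term the region passed as lower in KO PTU/LID, the opposite direction to WT. Within the libraries of higher chrM share, KO PTU/LID is library A alone, which lay below all of KO chow. Regions 1 to 6 also lie in the noncoding gene Gm28836, so acetylation there cannot be given to Gsta3 alone. Without the distant regions the direction of the gene's sum changes, to -0.17 with regions within 10 kb and -0.21 with those inside the gene, neither past the threshold.

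In all, 6 of 50 member regions rose and 1 fell in KO, beside 3.28% and 2.94% of all regions (6.21% in either direction), with a median of 0.18 against -0.01. The distant Gsta3 regions make up 3 of the 6. In the same comparison 2 of 11 hepatocyte markers rose (median 0.22), 1 of 9 endothelial (median -0.19) and 1 of 2 lymphocyte markers (median -0.38) fell, and no marker of the other lists passed in edgeR, nor at an unadjusted p under 0.05. Their part was not tested.

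**Figure D3:**
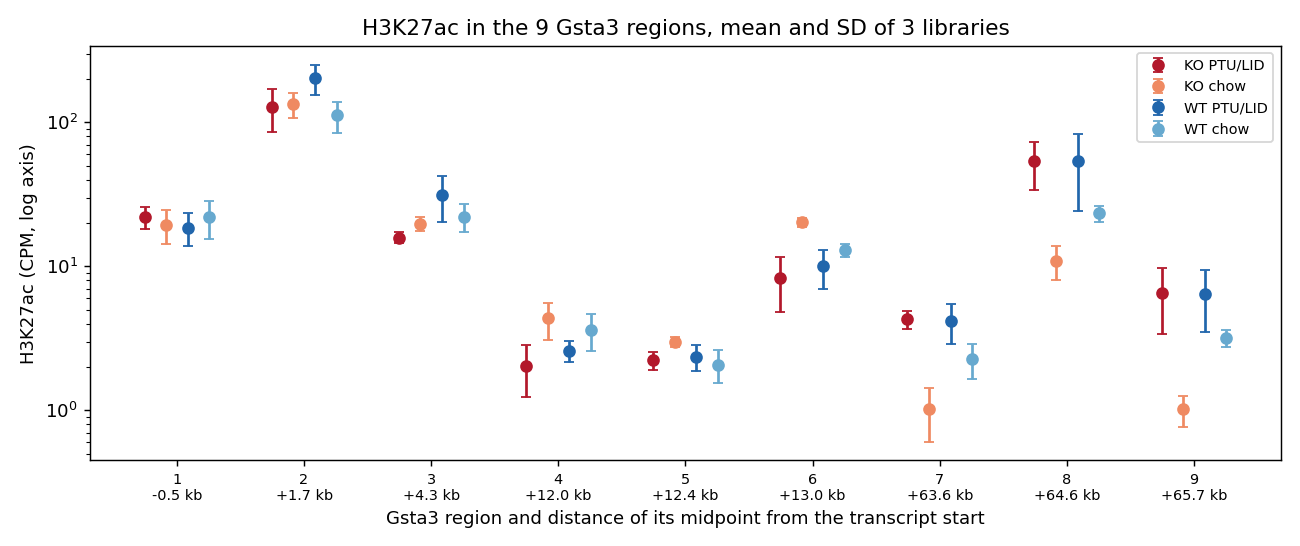
H3K27ac in CPM (y axis, log scale) in the 9 Gsta3 regions, placed by number with the distance of each midpoint from the transcript start in kb (x axis); points are means and bars SDs of 3 libraries, in KO PTU/LID, KO chow, WT PTU/LID and WT chow. Regions 7 to 9 are lowest in KO chow, with region 8 at 30.7 to 66.0 CPM in KO PTU/LID against 7.62 to 13.2 CPM in KO chow.

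At the same distant regions, WT values were 2.69, 5.17 and 4.72 CPM in PTU/LID against 1.58, 2.76 and 2.48 CPM in chow for region 7, and 4.18, 5.38 and 9.85 against 2.85, 3.04 and 3.64 CPM for region 9. Region 8 had 29.0, 46.1 and 86.0 CPM in WT PTU/LID and 21.2, 26.8 and 22.3 CPM in WT chow. The WT log2 fold changes of 0.88 ± 0.39, 1.21 ± 0.40 and 1.03 ± 0.38 for regions 7, 8 and 9 did not pass (adjusted p = 0.203, 0.135 and 0.118). Without WT PTU/LID A, regions 8 and 9 passed. Nor did the difference between the diet responses of KO and WT pass, at 1.14 ± 0.57, 1.09 ± 0.58 and 1.67 ± 0.58 (interaction, adjusted p = 0.546, 0.608 and 0.285).

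To see what loss of NCoR1 does on chow, KO chow was compared with WT chow. Both theta genes rose. Gstt1 had 362, 382 and 395 CPM in KO chow, against 261, 249 and 322 CPM in WT chow. Gstt2 had 221, 255 and 215 CPM in KO chow, against 132, 139 and 158 CPM in WT chow. For both genes every KO library lay above every WT library. The log2 fold changes were 0.45 ± 0.13 for Gstt1 (adjusted p = 0.0458 by edgeR's quasi-likelihood test) and 0.68 ± 0.18 for Gstt2 (0.0399).

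Their neighbour Gstt3, another theta gene of the cluster, rose as well, with 66.5 ± 11.4 CPM in KO chow and 40.0 ± 6.93 CPM in WT chow (log2 fold change 0.72 ± 0.18, adjusted p = 0.0288). Gstt1 region 11, the gene's strongest (chromosome 10, 75793402 to 75797481), had 150.2, 156 and 164 CPM in KO chow and 93.8, 79.8 and 116 CPM in WT chow. Gstt2 region 3, at the edge of the gene toward higher coordinates (chromosome 10, 75835852 to 75837511), had 58.1, 77.0 and 52.7 CPM in KO chow and 32.9, 32.3 and 34.2 CPM in WT chow. Neither region's groups overlapped. The log2 fold changes were 0.70 ± 0.16 (adjusted p = 0.0119) and 0.91 ± 0.18 (adjusted p = 0.00241), and region 3 of Gstt2 passed under all 14 alternatives tried for it. Gstt2 region 2, the highest at a mean of 132 CPM over all libraries, did not pass with edgeR.

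In the same comparison 3 of 9 endothelial (median -0.45), 1 of 4 Kupffer cell (median -0.71), 1 of 4 stellate (median -0.47) and 1 of 2 lymphocyte markers (median -0.06) fell. The other lymphocyte marker was higher at an unadjusted p under 0.05. The lymphocyte sum was 94.3 to 128 CPM in KO chow and 87.7 to 93.9 CPM in WT chow. Of hepatocyte and cholangiocyte markers 0 passed in edgeR (2 and 0 higher at an unadjusted p under 0.05). Their part was not tested.

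In KO chow 2 of 10 member genes were higher, beside 2.26% higher and 1.38% lower of all genes (3.64% in either direction), and 2 of 50 regions higher, beside 1.6% higher and 0.825% lower of all regions (2.43% in either direction). The share of regions is near the background. The medians were 0.14 against 0.00 for genes and 0.13 against -0.01 for regions. Lower members numbered 0 by edgeR and by DESeq2 at both levels, with 0 genes and 4 regions lower at an unadjusted p under 0.05. Gstt2 lost its call without any 1 of the 6 chow libraries (adjusted p 0.0772 to 0.138), and Gstt1 lost its without any 1 KO chow library or without WT chow A or B (0.0994 to 0.205). With library totals alone Gstt1 had 0.26 (0.207), and with regions inside genes only 0.46 (0.0506). Within the libraries of higher chrM share, which hold all of KO chow and libraries A and B of WT chow, Gstt1 had 0.58 (adjusted p = 4.97e-05) and Gstt2 0.76 (8.74e-06). Region 11 of Gstt1 did not pass without KO chow C or WT chow A or B (0.0547 to 0.114). With library totals alone this region had 0.51 and did not pass (adjusted p = 0.0672 by edgeR).

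Of the other members, Gsta2 had 83.6, 97.5 and 97.5 CPM in KO chow and 77.6, 66.5 and 71.8 CPM in WT chow, a log2 fold change of 0.37 ± 0.14 that did not pass (adjusted p = 0.13) although the groups did not overlap. Gsta2 passed in edgeR with a chrM-set term (0.0114), with the compared groups alone (0.0318) and within libraries of higher chrM share (0.0427). It passed in 0 of 6 fits with a library left out, and with regions inside genes only it had -0.43. Gsta4 had 0.46 ± 0.26 and Gstm1 0.19 ± 0.12. Gstm4, Gsta3, Gstp1, Gstm3 and Gstm2 had 0.09 ± 0.14, 0.06 ± 0.22, -0.14 ± 0.14, -0.18 ± 0.19 and -0.19 ± 0.22, none past the threshold. Scaled by library totals alone, the median of all genes in this comparison is -0.19, and Gstm1, Gstm4 and Gsta3 take values below 0 while staying above that median. The distant Gsta3 regions 7, 8 and 9 had -1.15 ± 0.46, -1.09 ± 0.44 and -1.63 ± 0.48 (adjusted p = 0.175, 0.228 and 0.0547), with every KO library below every WT library. Fitted on these groups alone, regions 8 and 9 passed.

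On PTU/LID, KO was compared with WT. No member gene passed with edgeR's quasi-likelihood test, beside 5.19% of all genes (3.47% higher and 1.71% lower), with 2 higher and 1 lower at an unadjusted p under 0.05. With DESeq2, 1 passed, Gstt1. It had 326, 407 and 419 CPM in KO PTU/LID and 248, 328 and 295 CPM in WT PTU/LID (log2 fold change 0.40 ± 0.13, adjusted p = 0.0648 by edgeR). Library A of KO fell just below library B of WT, and without either of them the gene passed.

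Gstt2 had 203, 289 and 257 CPM in KO PTU/LID and 147, 247 and 263 CPM in WT PTU/LID (0.19 ± 0.17), with the groups overlapping. The alpha gene Gsta3 had 169, 268 and 291 CPM in KO PTU/LID and 244, 336 and 417 CPM in WT PTU/LID (-0.45 ± 0.22, adjusted p = 0.287), and Gstp1 -0.30 ± 0.13 (adjusted p = 0.213). With a chrM-set term in edgeR, Gsta3 passed, lower in KO (-0.46, adjusted p = 0.00427), and Gstt1 passed, higher in KO (0.40, 0.000928). Gstp1 passed, lower in KO, without WT PTU/LID A (-0.44). Gstm2 had 0.58 ± 0.22, Gstm3 0.13 ± 0.18, Gstm4 0.13 ± 0.13, Gsta2 0.11 ± 0.13, Gstm1 -0.09 ± 0.12 and Gsta4 -0.09 ± 0.24. The median was 0.12 against -0.07 over all genes.

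A single region passed, region 3 of Gsta3, 4270 bases after the start (chromosome 1, 21244234 to 21245477), singled out after its values were seen. It had 14.6, 17.2 and 15.7 CPM in KO PTU/LID and 23.9, 26.1 and 43.9 CPM in WT PTU/LID, so that every KO library was lower and library C of WT stood highest. The log2 fold change was -0.98 ± 0.22 (adjusted p = 0.00444). Without WT PTU/LID C it was -0.65 (0.14). Within the libraries of higher chrM share, where each group is library A alone, it was -0.71. This is 1 of 50 regions lower, beside 0.7% of all regions (3.87% in either direction), and higher regions numbered 0 by edgeR, 8 at an unadjusted p under 0.05 and 0 with DESeq2, beside 3.17% of all. The median was -0.01, against -0.01 over all regions. Region 2 of Gsta3, over the start, had -0.67 ± 0.23 and did not pass (adjusted p = 0.117 by edgeR). Under some alternatives it passed, lower in KO. These were library totals alone, a chrM-set term, libraries of lower chrM share only, and WT PTU/LID A left out. No cell type marker passed in edgeR in this comparison. At an unadjusted p under 0.05, 3 of 9 endothelial (median -0.29) and 2 of 4 stellate markers (median -0.52) were lower. By the same measure 1 of 2 lymphocyte markers (median 0.21) was higher. Their part was not tested.

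**Figure D4:**
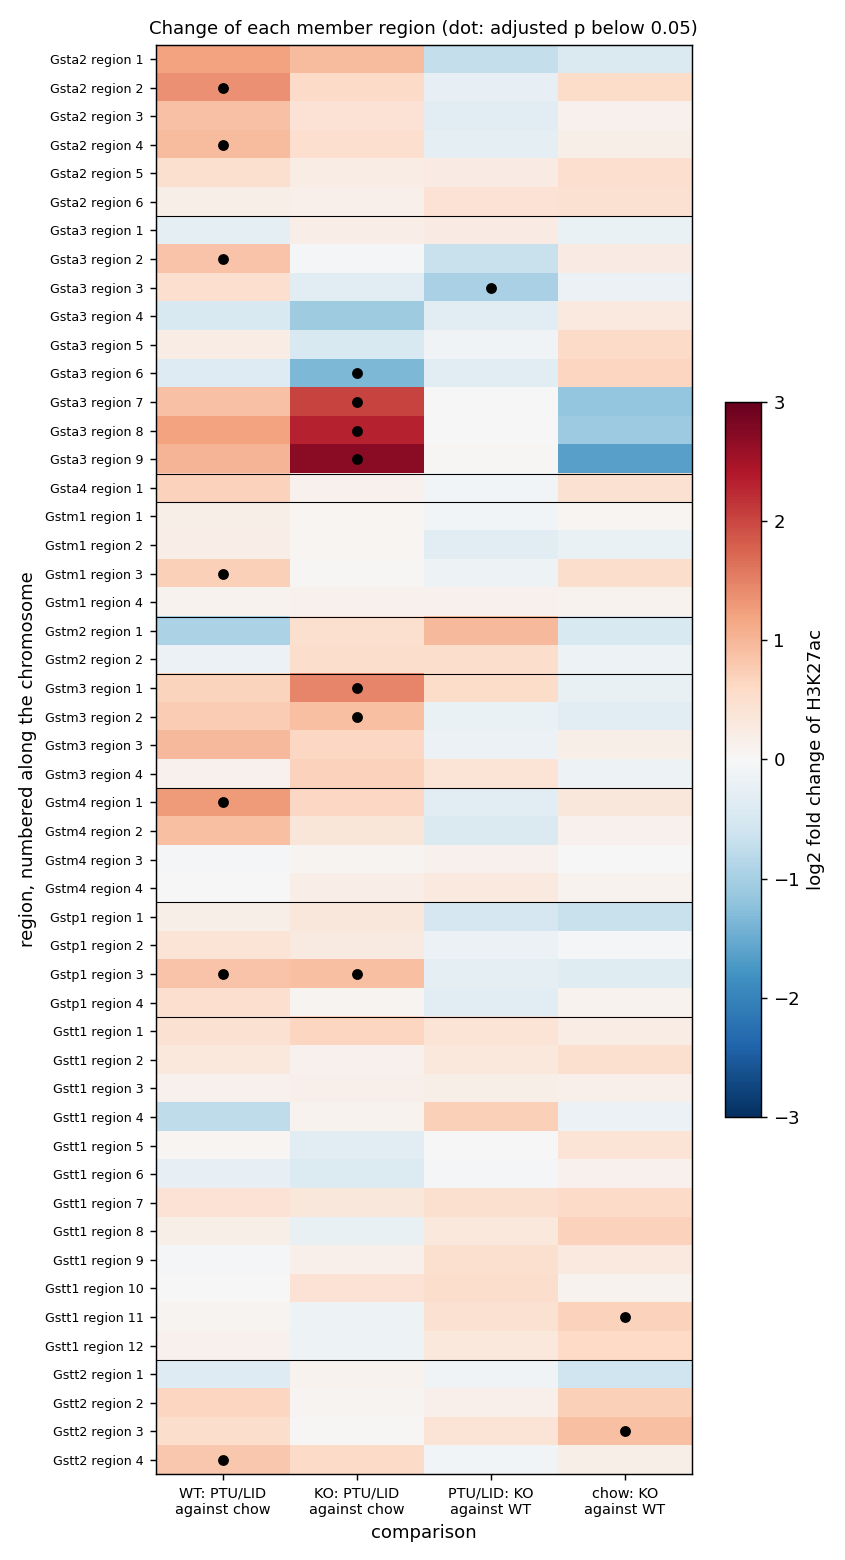
Log2 fold change (colour, red higher and blue lower) of the 50 member regions, numbered along each chromosome (y axis), in PTU/LID against chow in WT and in KO and in KO against WT on PTU/LID and on chow (x axis); dots mark adjusted p below 0.05. The WT diet column has 7 dots over all 4 classes, the KO diet column 7, of which 4 are at regions assigned to Gsta3, and the genotype columns 1 and 2.

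No member gene or region showed a diet response that differed between KO and WT by the interaction test in edgeR, beside 0.271% of all genes (0.192% above and 0.0786% below 0) and 0.23% of all regions (0.158% above and 0.0723% below 0). At an unadjusted p under 0.05 there were 1 gene above and 0 below 0 and 3 regions above and 5 below 0, and with DESeq2 there were 0 of each. The interaction of Gsta3 was -0.52 ± 0.31, of Gstt2 -0.50 ± 0.25 and of Gstm2 0.77 ± 0.32 (adjusted p = 0.593, 0.505 and 0.391). With a term for the chrM sets, Gsta3 (-0.74) and Gstt2 (-0.65) passed, as did region 2 of each, also below 0. Without that term, the diet calls that differ between WT and KO are not shown to differ. The diet and genotype comparisons share groups, so their values stand side by side and are not independent.

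Of the other glutathione S-transferase genes, 13 of 18 had a region. In WT, 5 of the 13 rose on PTU/LID, beside 4.11% of all genes, with a median of 0.56 against 0.02. They were Gstm6 (8.07 ± 3.57 CPM in PTU/LID, 3.1 ± 0.58 in chow, log2 fold change 1.30 ± 0.35), Gstp2 (40.0 ± 3.33 and 21.2 ± 1.27 CPM, 0.92 ± 0.15), Gstt3 (61.0 ± 14.5 and 40.0 ± 6.93 CPM, 0.60 ± 0.18), Mgst3 (93.9 ± 4.51 and 63.0 ± 9.64 CPM, 0.56 ± 0.13) and Mgst1. Mgst1 and Mgst3 encode microsomal enzymes of a separate family. Mgst1 lies outside the naming rule and was named after its values were seen, with 0.51 ± 0.11. In KO, 2 of 13 rose on PTU/LID, beside 3.67% of all genes, namely Gsta1 (18.9 ± 1.75 CPM in PTU/LID and 8.34 ± 2.98 in chow, 1.17 ± 0.31) and Gstp2 (31.6 ± 2.3 and 19.1 ± 1.5 CPM, 0.72 ± 0.15). On chow, Gstt3 and Mgst1 (0.42 ± 0.11) rose in KO over WT, beside 2.26% of all genes. On PTU/LID 0 of 13 passed in edgeR, beside 5.19% of all genes in either direction, with 0 higher and 1 lower at an unadjusted p under 0.05. In the first 3 of these comparisons 0 of 13 fell by edgeR, with 0, 0 and 1 lower at an unadjusted p under 0.05. Genes outside the members, Gstt3 among them, were not followed under the alternatives.

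Genes of glutathione synthesis and turnover (23 of 27 with a region) split in direction. Cbs, which starts the route from homocysteine to cysteine, rose in all 4 comparisons, by 0.43 to 0.46. Ggt6, of the gamma-glutamyl transferase family, rose with diet in WT (0.49 ± 0.13) and with KO on chow (0.48 ± 0.13). Gpx1, the main cytosolic glutathione peroxidase, fell on PTU/LID in WT (199 ± 3.35 CPM against 274 ± 25.3 in chow, -0.46 ± 0.11) and in KO (223 ± 28.9 against 334 ± 12.2 CPM, -0.58 ± 0.11), and Ggct, which breaks down gamma-glutamyl amino acids, fell in KO (-0.57 ± 0.16). The counts were 2 higher and 1 lower in WT on diet, 1 and 2 in KO on diet, 2 and 0 for KO on chow and 1 and 0 for KO on PTU/LID. Over all genes the shares higher and lower were 4.11% and 3.26%, 3.67% and 3.43%, 2.26% and 1.38%, and 3.47% and 1.71% in that order. For KO on chow and KO on PTU/LID, 0 and 1 were lower at an unadjusted p under 0.05 in edgeR. Gclc, the rate-limiting enzyme of glutathione synthesis, passed in none.

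Of 28 NRF2 targets and regulators, 27 had a region. In WT, 1 rose on PTU/LID, the quinone reductase gene Nqo1 (33.3 ± 6.47 CPM against 20.5 ± 5.17 in chow, 0.72 ± 0.19), and 2 fell, Me1 (-0.61 ± 0.15) and Osgin1 (-0.50 ± 0.14). In KO, the efflux transporters Abcc4 (102 ± 13.4 against 56.1 ± 13.5 CPM, 0.87 ± 0.15) and Abcc3 (0.38 ± 0.11) rose and Osgin1 fell (-0.83 ± 0.14). Between genotypes, 0 of 27 passed on chow in edgeR (4 higher and 0 lower at an unadjusted p under 0.05), and Me1 (0.83 ± 0.15) and Abcc4 (0.52 ± 0.15) rose in KO on PTU/LID, with 0 lower (3 at an unadjusted p under 0.05). The NRF2 gene itself, Nfe2l2, and its inhibitor Keap1 passed in no comparison. The list's median lay between -0.08 and 0.07 in these 4 comparisons. Of all genes, 4.11% were higher and 3.26% lower for diet in WT, and 3.67% and 3.43% for diet in KO. For KO against WT these shares were 2.26% and 1.38% on chow and 3.47% and 1.71% on PTU/LID.

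All 22 genes linked to the receptors CAR, PXR and AhR had a region. On PTU/LID in WT, the CAR gene Nr1i3 rose (244 ± 51.8 against 165 ± 27.2 CPM in chow, 0.56 ± 0.15), and the PXR target Cyp3a11 fell (180.4 ± 31.2 against 314 ± 30.5 CPM, -0.80 ± 0.12). In KO 0 of 22 passed with diet in edgeR, with 4 higher and 1 lower at an unadjusted p under 0.05. Over WT on chow, KO had a higher Sult2a1, a bile acid and steroid sulfotransferase (93.6 ± 5.05 and 19.7 ± 2.75 CPM, 2.27 ± 0.24), the single call of 22. Over WT on PTU/LID, 5 rose in KO, namely Sult2a1 (1.87 ± 0.24), Cyp3a11 (1.07 ± 0.12), Cyp2c55 (0.78 ± 0.15), the PXR gene Nr1i2 (0.74 ± 0.18) and, named after its values were seen, the carboxylesterase gene Ces2a (0.62 ± 0.14). In neither genotype comparison was a gene of this list lower, with 0 at an unadjusted p under 0.05. Of all genes, 4.11% were higher and 3.26% lower for diet in WT, and 3.67% and 3.43% for diet in KO. For KO against WT these shares were 2.26% and 1.38% on chow and 3.47% and 1.71% on PTU/LID.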

How the data were processed

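H3K27ac was measured in 12 libraries, 3 per group; the 4 input libraries are not analysed here. The authors deposited counts, as whole reads, for 52645 regions in each library, with a region length in base pairs. The submitters' processing notes name mm10 and, with no role or order, bedtools 2.26.0, MACS2 2.1.1, Picard 2.8.1, Bowtie2 2.2.1 and bcl2fastq 2.17.1.14. How the shared regions were made and whether duplicates were removed is not given in the sources used here. "In no gene" was read as in no protein-coding gene of the RefSeq table of GRCm38.p6.

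Region counts, and their sums per gene, entered edgeR 4.0.16 in R 4.3.3 (quasi-likelihood F test, robust, a mean for each of the 4 groups). TMM factors came from the regions at both levels. Features passing filterByExpr at a minimum count of 10 were tested, 52592 regions and 11456 genes. Adjusted p is Benjamini-Hochberg over all features tested, with a threshold of 0.05, and each SE was derived from the fold change and its F. The tests were tried on simulated data. Levels are relative to the summed regions, so a shift of all regions together would not show.

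Alternatives were DESeq2 1.42.0, median-ratio (RLE) factors, library totals alone, no chrM regions, no filter, the compared groups only, a chrM-set term, assignment inside genes or within 10 kb, and each library left out. The fits within libraries of higher and lower chrM share, split at 2% into 7 and 5, were added after seeing the data. No H3K27ac groups share a library number, so none were paired. The members, lists, motifs and tests were chosen with earlier results of these data known. Named were all members, for each member the region highest in mean CPM and up to 3 that passed with the smallest adjusted p, and up to 4 genes per list and comparison that passed with the largest change. A planned comparison of protein sequences was not run. A marker gene is not reported here.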

Additional observations from a re-analysis of the deposited data

How the results depend on the processing

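Each comparison below is a count of member genes or regions that passed, or a log2 fold change of a gene, with its value under the named alternative; the cause of each shift was not tested. With DESeq2, 2 genes passed for diet in KO and 1 for KO against WT on PTU/LID. With a chrM-set term, genes numbered 6 for diet in WT, 2 for diet in KO, 2 for KO on PTU/LID and 2 for the interaction, and regions 8 for KO on chow, 4 for KO on PTU/LID and 2 for the interaction; Gstt1 took -0.0431 for diet in WT, and for diet in KO Gsta3 took -0.24, Gsta4 -0.10, Gstt1 -0.22 and Gstt2 -0.21. With library totals alone, the median of all genes moved to -0.19 for KO on chow and 0.09 for diet in KO. There 2 genes passed for diet in KO and 1 for KO on chow, and 2 regions for KO on PTU/LID; Gsta3 (-0.13), Gstm1 (-0.005) and Gstm4 (-0.11) changed sign for KO on chow and Gstt1 (0.0744) for the interaction, and class ratios were 0.35 (mu, diet in KO) and -0.11, -0.33 and 0.34 (mu, pi and theta, KO on chow). With regions inside genes only, 1 gene passed for diet in WT and 1 for KO on chow; Gstm4 took -0.0153 for diet in WT, Gsta3 -0.21 and Gstt1 -0.0025 for diet in KO, and Gsta2, then 1 region, -0.43 and -0.71 for KO on chow and on PTU/LID. Within 10 kb Gsta3 took -0.17 for diet in KO. Fitted on the compared groups alone, 7 regions passed for KO on chow.

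Within libraries of higher chrM share, 0 genes and 1 region passed for diet in WT (edgeR; the KO PTU/LID and WT PTU/LID arms are 1 library each, assumed to vary like the others), 3 regions for diet in KO and 7 for KO on chow. Signs changed for Gstm2 (0.0361) and Gstt1 (-0.0392) for diet in WT, for Gsta2 (-0.12), Gsta3 (-0.34), Gsta4 (-0.27), Gstm1 (-0.0851), Gstt1 (-0.22) and Gstt2 (-0.18) for diet in KO, for Gstm4 (-5e-04) for KO on chow, and for Gsta2 (-0.18), Gstm3 (-0.26), Gstm4 (-0.25) and Gstp1 (0.0843) for KO on PTU/LID. Class ratios were -0.27 (alpha) and -0.21 (theta) for diet in KO, 0.18 (pi) for diet in WT, and -0.18 (mu) and 0.084 (pi) for KO on PTU/LID. Within libraries of lower share, where WT chow is 1 library with the same assumption, 5 genes passed for diet in WT, 3 genes and 4 regions for KO on PTU/LID, and Gstt1 took -0.0447 for diet in WT; no KO chow library is in that set.

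With each library left out in turn, genes that passed ranged from 0 to 5 for diet in WT, 1 to 2 for diet in KO, 0 to 1 for KO on chow and 0 to 1 for KO on PTU/LID, and regions from 1 to 12, 5 to 7, 1 to 2 and 0 to 3. Signs changed for Gstt1 (-0.0297 to 0.19 for diet in WT, -0.0495 to 0.12 for diet in KO, -0.17 to 0.0541 for the interaction), Gsta3 (-0.0519 to 0.22, KO on chow), Gsta4 (-0.25 to 0.15), Gstm3 (-0.0142 to 0.33) and Gstt2 (-0.0298 to 0.34), all for KO on PTU/LID, and Gstm4 (-0.0665 to 0.16, interaction). In all, 271 of the counts and class ratios kept within 1.5 times or the spread between libraries and 59 did not. No paired analysis was possible because the H3K27ac groups share no library number. Regions with under 10 reads, such as Gsta3 regions 7 and 9 in KO chow, limit the precision.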

Other observations

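Sulfotransferases and UDP-glucuronosyltransferases, which add sulfate or glucuronic acid to drugs, steroids and thyroid hormone, were followed beside the glutathione enzymes, and all 18 had a region. Sult5a1 fell on PTU/LID in both genotypes, with 19.2 ± 5.62 CPM in WT PTU/LID against 57.5 ± 3.73 in WT chow (log2 fold change -1.60 ± 0.21, adjusted p = 5.12e-05 by edgeR's quasi-likelihood test) and 17.3 ± 4.31 CPM in KO PTU/LID against 74.5 ± 16.4 in KO chow (-2.12 ± 0.20, adjusted p = 2.71e-07). It was the single call of 18 for diet in WT, beside 4.11% higher and 3.26% lower of all genes. For diet in KO these shares were 3.67% and 3.43%. In KO, Ugt2b37 (-1.04 ± 0.17), Sult1c2 (-0.46 ± 0.14) and, named after its values were seen, Ugt2a3 (-0.38 ± 0.11) also fell, and Ugt1a9 rose (217 ± 32.4 CPM in KO PTU/LID against 134 ± 17.7 in KO chow, 0.70 ± 0.15, adjusted p = 0.00423).

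On chow, 2 of the 18 were higher in KO than in WT, namely Ugt2b37 (58.5 ± 6.32 and 36.1 ± 4.64 CPM, 0.70 ± 0.17) and Ugt1a5 (191 ± 11.6 and 138 ± 16.7 CPM, 0.47 ± 0.12). On PTU/LID the single call was Ugt1a9, higher in KO (0.52 ± 0.15, adjusted p = 0.0398 by edgeR). Of all genes, 2.26% were higher and 1.38% lower in KO on chow, and 3.47% and 1.71% on PTU/LID. The Ugt1a genes share exons and the Ugt2b genes are close copies, so which of them carries a change is uncertain.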
